A study of Mus musculus with 33 samples.

Results

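A set of 7 genes of brain lipoproteins was followed in the mouse hippocampus: the apolipoproteins Apoe, Apoc1, Apod and Clu, and the remodelling proteins Lcat, Pltp and Lpl. The rule names the genes by function and uses no measured value, but the members were chosen with earlier results of these data known. Every probe set that the platform annotation assigns to one of them alone was used. That gave 7 genes and 13 probe sets of the 18193 genes and 34945 probe sets with 1 gene name, and all 13 passed the filter on dim signals. Clu has 4 probe sets, Apod, Pltp and Lpl have 2 each, and Apoe, Apoc1 and Lcat have 1 each.

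Total RNA of the right hippocampus was measured on Affymetrix MOE430 2.0 arrays, 1 array per animal and 11 animals in each of 3 groups, which the labels call biological replicates. Wild-type littermates and one group of Tg2576 mice received vehicle, and the other Tg2576 group received TO901317 at 50 mg per kg per day, a synthetic compound that activates the liver X receptors (LXR). All mice were on a mixed SJL × C57BL/6J background, were 20 weeks old (5 months in another label), and were dosed by oral gavage in Tween 80 and sodium carboxymethylcellulose, with the last dose 1 hour before sacrifice and saline perfusion. The labels give 7 days of dosing in one place and 5 days in another. Tg2576 mice carry human APP with the Swedish mutation under the prion promoter; the labels describe the transgenic animals as heterozygous males. The 33 arrays include no wild-type mice given the drug. The tissue is bulk, so fewer cells of a type and less RNA per cell cannot be told apart.

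Brain lipoproteins are made inside the brain, because plasma lipoproteins do not readily cross the blood-brain barrier. Astrocytes secrete apolipoprotein E, the transporters ABCA1 and ABCG1 load it with cholesterol and phospholipid, and neurons take up the particles through receptors of the LDL receptor family. Enzymes and transfer proteins remodel the particles in between, and LXR is a nuclear receptor, activated by oxysterols, whose textbook targets include ABCA1, ABCG1 and APOE.

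Signals had nearly the same trimmed mean on every array and medians between 19.4 and 28.9, and the number of arrays limits the precision. Of 27022 probe sets tested, 43 passed limma's adjusted p threshold of 0.05 between vehicle Tg2576 and wild type. Between treated and vehicle Tg2576 mice 38 passed, 19 higher and 19 lower (12 and 4 when each array's median was subtracted), and between treated Tg2576 and wild type 39 passed. Single arrays moved these counts by over 1.5 times. The count for treated minus vehicle was 14 without treated replicate 6, 15 without replicate 10, 21 without replicate 5 or 9, 23 without replicate 1, and 22 or 25 without vehicle replicate 3 or 9. That for vehicle minus wild type was 25 without wild-type replicate 3. That for treated minus wild type was 25 without wild-type replicate 1 or 2 and 61 without treated replicate 11. Vehicle Tg2576 replicates 3 and 4 stood apart in 1 measure of RNA quality, with log2 ratios of the 3' to the 5' Gapdh control probe set at 0.11 and 0.08, against a highest value of -0.09 in wild-type and -0.11 in treated animals. Of 9 textbook LXR targets tested, none of them a member here, 4 rose over vehicle Tg2576, with Abca1 at 0.61 (SE 0.08, limma adjusted p = 0.000164) and Srebf1, a lipogenic transcription factor, at 0.63 (SE 0.09, limma adjusted p = 0.000164) on the log2 scale. All 10 CA pyramidal and all 10 dentate granule neuron markers passed the filter, as did 9 markers of neighbouring thalamus and striatum and 10 of choroid plexus. The summed choroid plexus signal ran from 347 to 10076 in wild type, from 201 to 7280 in vehicle Tg2576 and from 927 to 8629 in treated mice, so this signal varied widely within each group.

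Sequence upstream of the start was available from RefSeq (GRCm38.p6) for 4 of the 7 members, and the windows of Apod, the member with the clearest response, and of Lcat, the member with the most negative drug difference, are shown beside that of Abca1, the LXR target used as a check. Each window is the 250 bases before the annotated start, written 5′ to 3′ on the gene's strand, which is the minus strand for all 3 genes. The capitals mark the closest match on either strand to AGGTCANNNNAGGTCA, the repeat with a spacer of 4 bases that LXR is known to bind. The Apod window is chr16:31314809-31315058, the Lcat window chr8:105943403-105943652 and the Abca1 window chr4:53159896-53160145.
Apod: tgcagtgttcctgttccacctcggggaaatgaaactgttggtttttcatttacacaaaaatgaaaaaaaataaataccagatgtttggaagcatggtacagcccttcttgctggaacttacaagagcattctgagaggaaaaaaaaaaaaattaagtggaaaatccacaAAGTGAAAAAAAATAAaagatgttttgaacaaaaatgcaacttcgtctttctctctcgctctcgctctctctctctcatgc
Lcat: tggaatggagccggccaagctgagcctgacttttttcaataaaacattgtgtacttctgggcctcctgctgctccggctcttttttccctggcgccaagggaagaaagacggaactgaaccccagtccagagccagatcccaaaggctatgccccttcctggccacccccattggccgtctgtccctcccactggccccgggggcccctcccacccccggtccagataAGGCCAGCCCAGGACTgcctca
Abca1: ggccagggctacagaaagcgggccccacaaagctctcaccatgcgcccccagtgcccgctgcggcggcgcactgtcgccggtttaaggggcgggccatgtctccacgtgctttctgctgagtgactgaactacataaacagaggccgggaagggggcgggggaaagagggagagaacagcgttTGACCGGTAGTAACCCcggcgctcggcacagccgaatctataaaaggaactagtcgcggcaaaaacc
The match in the Apod window had 5 mismatches in the 12 fixed letters, and 99.5% of all 32851 windows held a match with as few or fewer. The Lcat and Abca1 windows each held a match with 3 mismatches, a level reached by 18.5% of windows. Apoe had 3 windows with 5, 4 and 4 mismatches, and Pltp had 1 with 5. A match is a description of letters, and these windows hold no measured binding. No other motif was searched. Windows of Apoc1, Clu and Lpl were not used here.

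Across the 13 probe sets, 0 passed between vehicle Tg2576 and wild type, where 0.159% of all probe sets passed limma's test (0.0703% higher and 0.0888% lower), and 0 had an unadjusted p under 0.05, where 9.7% of all did. The median difference was -0.08, with 5 above 0, against 0.0003 over all probe sets. Between treated and vehicle Tg2576, 1 rose and 12 did not pass, where 0.141% of all passed (0.0703% higher and 0.0703% lower). There 5 had an unadjusted p under 0.05, where 10.5% of all did, the median was 0.11 and 11 were above 0. Between treated Tg2576 and wild type, 2 rose and 11 did not pass, where 0.144% of all passed (0.0703% higher and 0.074% lower), and 4 had an unadjusted p under 0.05, where 8.2% of all did. The median there was 0.02, with 8 above 0. The groups did not overlap for 0 of the 13 in any comparison, where 0.0259%, 0.0074% and 0.0148% of all probe sets did not overlap in the same order. Probe sets of 1 gene share their transcript, so these are not 13 independent measurements, and the comparisons share arrays pairwise. The members were chosen with earlier results of these data known, so the shares are a description.

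**Figure D1:**
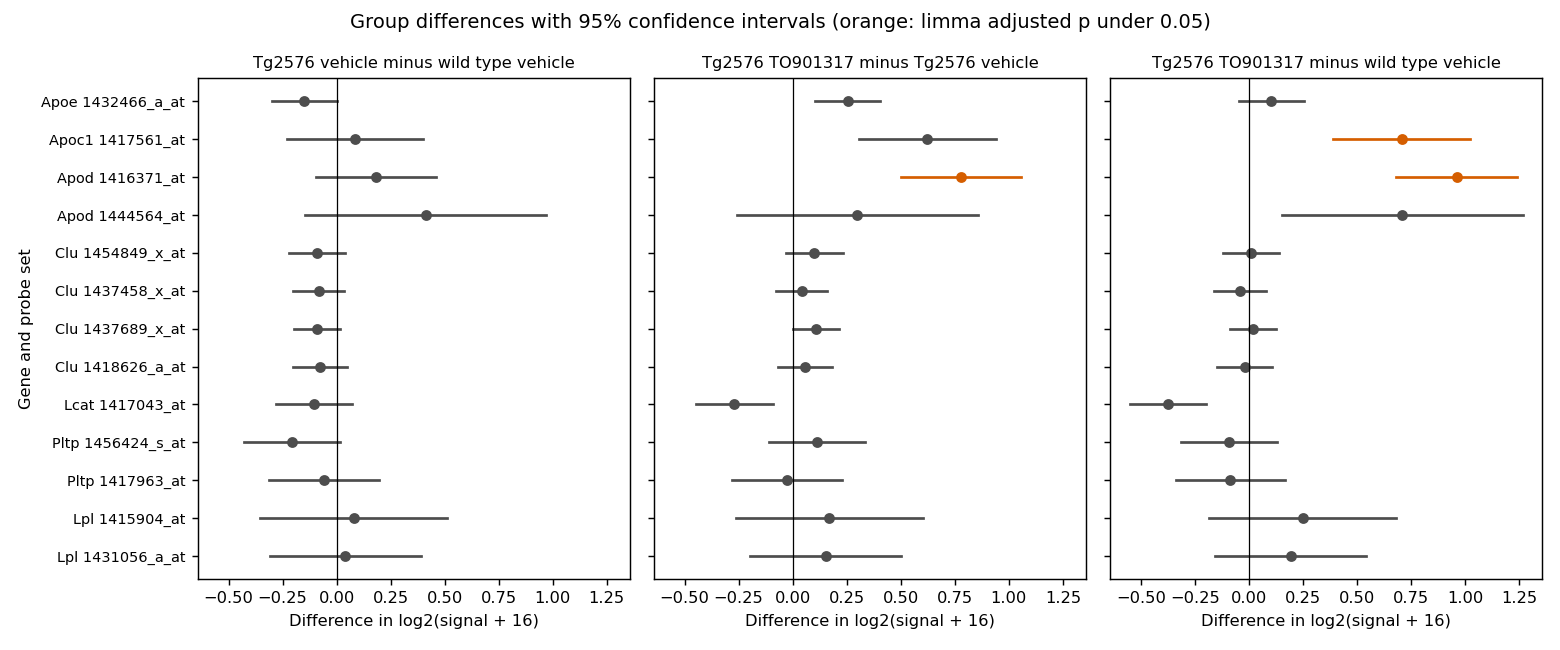
Differences in log2(signal + 16) with 95% confidence intervals for the 13 probe sets in the 3 comparisons, in orange where limma's adjusted p was under 0.05. The orange differences all lie above 0: Apod 1416371_at in both comparisons with treated mice and Apoc1 in treated minus wild type.

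Apod encodes apolipoprotein D, a lipocalin that carries small hydrophobic molecules and is made in the brain by glia and by cells of the vessel wall and meninges. Its bright probe set, 1416371_at, had signals of 902 to 2041 in wild type (median 1268), of 949 to 1864 in vehicle Tg2576 (median 1506) and of 1639 to 3263 in treated Tg2576 (median 2731). Every treated animal lay above the vehicle median, and 10 of 11 lay above the highest vehicle animal. Treated replicate 3, at 1639, was the exception, and treated replicates 7, 4 and 2, at 1867, 2010 and 2011, stood below the other 7, which ran from 2601 upwards. The treated group therefore overlapped the vehicle group by 1 animal.

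On the log2(signal + 16) scale, Apod was 0.78 higher in treated than in vehicle Tg2576 mice (SE 0.14, 95% confidence interval 0.50 to 1.05, n = 11 each, limma adjusted p = 0.00956), or 1.71-fold. It was the member with the smallest p-value in this comparison and ranked 7 by p among all 27022 probe sets. Against wild type the treated animals were 0.96 higher (SE 0.14, limma adjusted p = 0.000336), or 1.95-fold, with 7 of 11 above the highest wild-type animal. These comparisons share the treated arrays and are not independent of each other. Vehicle Tg2576 and wild type differed by 0.18 (SE 0.14, 95% confidence interval -0.09 to 0.46, limma adjusted p = 0.709), less than the spread between animals. Without vehicle replicates 3 and 4 the drug difference was 0.80 (SE 0.15, limma adjusted p = 0.0296).

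The second Apod probe set, 1444564_at, was dim, at 0.811 to 44.8 in wild type (median 21.5) and at 20.0 to 64.1 in vehicle Tg2576 (median 28.0). In treated mice it had a median of 46.6 and ran from 2.25 in replicate 3 to 205 in replicate 9, the animals that were also lowest and highest on the bright probe set. Its difference between treated and vehicle Tg2576 was 0.30 (SE 0.27, limma adjusted p = 0.755) and it passed in no comparison. After removal of group means the pair of Apod probe sets correlated at r = 0.38 over 33 animals, given as a description.

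Apod was also the only member whose correlation with endothelial and with meningeal fibroblast markers from animal to animal passed the threshold. With group means removed, it correlated with a score of 11 brain endothelial markers at r = 0.73 (rho = 0.72, n = 33, two-sided permutation within groups, adjusted p = 0.00077 over 77 member and marker list pairs, from the smallest p the permutations can give, 1e-05). The value was 0.95 within wild type, 0.74 within vehicle and 0.47 within treated Tg2576, and 0.66 without the 2 animals farthest from the median score. The score includes Slco1a4, which correlated with Apod at r = 0.76, and r without it was not computed. For 13 meningeal fibroblast markers r was 0.59 (rho = 0.56, permutation, adjusted p = 0.0169 for r and 0.0377 for rho), and 0.51 without the 2 farthest animals. With pericyte markers Apod had r of 0.48, which did not pass (permutation, adjusted p = 0.09). Within wild type, vehicle and treated mice that r was 0.83, 0.13 and 0.39. Pltp had r of 0.49 with the endothelial and 0.44 with the meningeal score, and neither passed (permutation, adjusted p = 0.09 and 0.146).

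Of the 11 endothelial markers, all past the filter, 1 passed between treated and vehicle Tg2576 and 10 did not. There were 8 with a difference above 0 and the median difference was 0.17, against 0.0037 over all probe sets. Their summed signal ran from 1884 to 2942 in wild type, from 1856 to 2379 in vehicle and from 2074 to 2707 in treated animals. The marker that passed was Slco1a4, which carries organic anions at the blood-brain barrier, at 0.42 (SE 0.08, limma adjusted p = 0.025). With the endothelial score as a covariate, an alternative chosen after the data were seen, the Apod drug difference was 0.50 (SE 0.10) and missed the threshold (limma adjusted p = 0.0719). With Slco1a4 left out of the score it was 0.55 (SE 0.11, limma adjusted p = 0.0393). None of the 13 meningeal markers was higher in treated than in vehicle mice and none passed, with a median of -0.19, and their summed signal ran from 849 to 3635 in wild type, from 998 to 3577 in vehicle and from 778 to 2700 in treated mice. With meningeal, choroid plexus and thalamus and striatum scores as covariates the Apod drug difference was 0.92 (SE 0.11, limma adjusted p = 3.52e-05).

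Apod also varied with Srebf1 between animals of the same group. Among 14 pairs of a member with Abca1 or Srebf1, a set chosen after the data were seen, 1 passed: Apod with Srebf1 at r = 0.66 (rho = 0.70, permutation, adjusted p = 0.00042 for r and 0.00028 for rho). The r was 0.62 within wild type, 0.72 within vehicle and 0.67 within treated mice, and 0.63 without the 2 farthest animals. With Abca1 the value was 0.45 over all animals (rho = 0.42, permutation, adjusted p = 0.0917 for r and 0.091 for rho) and did not pass, with 0.29, 0.13 and 0.72 within wild type, vehicle and treated mice. Correlations of the members with the other LXR targets on the list were not computed.

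**Figure D2:**
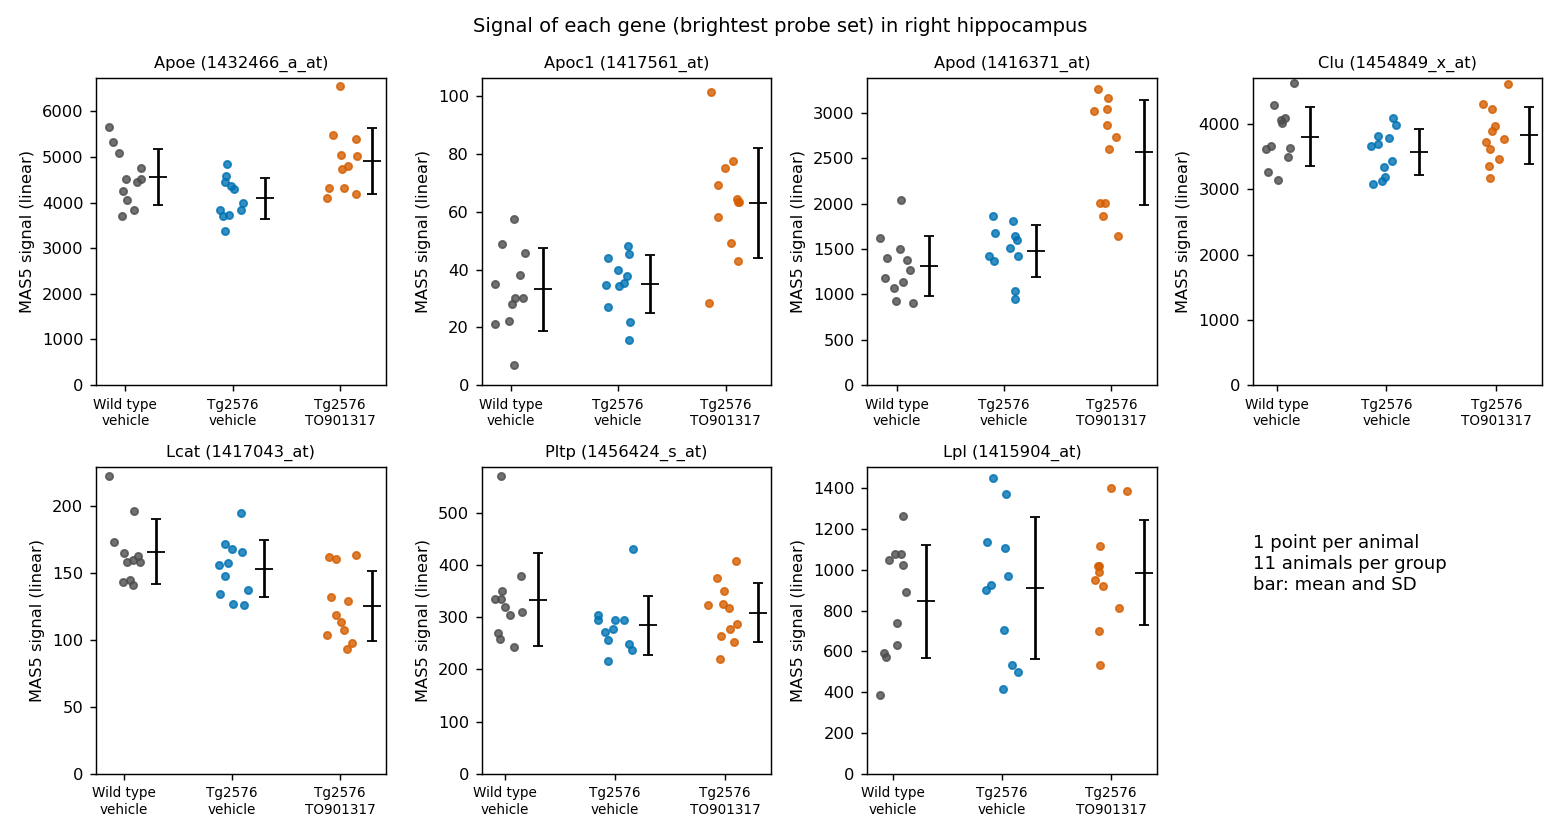
MAS5 signal on a linear axis for the brightest probe set of each of the 7 genes, 1 point per animal, 11 animals per group, with bars for the mean and SD. Treated animals ran from 1639 to 3263 for Apod and from 28.5 to 101 for Apoc1, most of them above the vehicle animals, while the 3 groups of Clu, Pltp and Lpl overlapped through most of their range.

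Apoe encodes the main lipid carrier of the brain, made chiefly by astrocytes. Its single probe set, 1432466_a_at, lay in the top percentile of mean signal, with 3700 to 5657 in wild type (median 4513), 3372 to 4838 in vehicle Tg2576 (median 4000) and 4104 to 6561 in treated Tg2576 (median 4800). All 11 treated animals lay above the vehicle median and 5 lay above the highest vehicle animal, but the groups overlapped. Treated minus vehicle was 0.25 (SE 0.07, 95% confidence interval 0.10 to 0.41), or 1.19-fold, with an unadjusted p of 0.00151 and a limma adjusted p of 0.179, so it missed the threshold. Vehicle minus wild type was -0.15 (SE 0.07, limma adjusted p = 0.515), and 2 of 11 vehicle animals lay above the wild-type median. Treated mice and wild type differed by 0.10 (SE 0.07, limma adjusted p = 0.796).

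The Apoe result depended on the scaling of the arrays. Under quantile normalization the drug difference was smaller, 0.18, but the SE was 0.03 and it passed (limma adjusted p = 0.0125). That was the only 1 of 18 alternatives in which it passed, and the highest limma adjusted p among them was 0.348. It passed in 0 of 33 fits that each left out 1 array (limma adjusted p 0.132 to 0.308). With group means removed, Apoe followed the 99th percentile of its array's signals at r = 0.77 (rho = 0.83, permutation, adjusted p = 3.5e-05 over 7 members, chosen after the data were seen), and the value was 0.82, 0.78 and 0.85 within the 3 groups. That percentile ran from 1807 to 2108 in wild type, from 1829 to 2123 in vehicle and from 1865 to 2052 in treated mice. With it as a covariate the Apoe drug difference was 0.20 (SE 0.05, limma adjusted p = 0.0503).

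Apoc1 encodes a small apolipoprotein known to inhibit lipoprotein lipase and receptor uptake, and in the genome it is the next protein-coding gene beside Apoe. Its probe set, 1417561_at, was dim: 6.95 to 57.6 in wild type (median 30.2), 15.5 to 48.3 in vehicle Tg2576 (median 35.2) and 28.5 to 101 in treated Tg2576 (median 63.3). Treated replicates 7 and 3, at 28.5 and 43.0, lay within the vehicle range and the other 9 lay above it. Treated minus vehicle was 0.62 (SE 0.16, 95% confidence interval 0.31 to 0.94), or 1.54-fold in signal + 16, with a limma adjusted p of 0.0908. The mean signals without the added 16 were 34.9 in vehicle and 63.0 in treated Tg2576. Against wild type the treated mice were 0.71 higher (SE 0.16, 95% confidence interval 0.39 to 1.02, 10 of 11 above the wild-type median), which passed narrowly (limma adjusted p = 0.0464). That call was lost in 19 of 33 fits that each left out 1 array, over which the adjusted p ran from 0.0114 to 0.0923. Vehicle Tg2576 and wild type differed by 0.08 (SE 0.16, limma adjusted p = 0.905).

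Genes next to Apoe and Apoc1 were looked at for the same change. Of 8 listed neighbours 5 were bright enough to test, and none passed in any comparison. Apoc2, Apoc4 and Bcl3 fell below the filter. The smallest p between treated and vehicle mice was that of Nectin2, a cell adhesion protein, with a difference of 0.10 (SE 0.10, limma adjusted p = 0.789). Between vehicle Tg2576 and wild type it was that of Bcam, another adhesion protein, at -0.25 (SE 0.18, limma adjusted p = 0.692).

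Clu encodes clusterin, also called apolipoprotein J, an extracellular chaperone that binds lipids and amyloid β. Its probe set 1454849_x_at had 3139 to 4625 in wild type (median 3662), 3084 to 4102 in vehicle Tg2576 (median 3659) and 3171 to 4620 in treated Tg2576 (median 3779). The groups overlapped almost entirely, and the other 3 probe sets correlated with it and with each other at r of 0.68 to 0.89. Over the 4 probe sets the drug difference lay between 0.04 and 0.11 and the transgene difference between -0.09 and -0.08. The smallest unadjusted p was that of 1437689_x_at under the drug, with a difference of 0.11 (SE 0.05, 10 of 11 treated animals above the vehicle median, limma adjusted p = 0.467). Clu also followed the 99th percentile of the array (r = 0.79, rho = 0.80, permutation, adjusted p = 3.5e-05). It correlated with 11 oligodendrocyte markers at r = 0.55 (rho = 0.55, permutation, adjusted p = 0.0191 for r), and at 0.50 without the 2 farthest animals. Mbp, a gene of that list, had r = 0.88 with Clu by a bright probe set (mean signal 3699), so array scaling may enter this correlation too. None of these markers passed in any comparison. Their summed signal ran from 9708 to 15355 in wild type, from 7466 to 14322 in vehicle and from 10207 to 14429 in treated mice. With astrocyte and oligodendrocyte scores together as covariates, the 4 Clu differences of vehicle minus wild type were 0.0088 to 0.0126, and none passed. The part of oligodendrocytes alone in the Clu values was not tested.

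Lcat encodes lecithin-cholesterol acyltransferase, which esterifies cholesterol on lipoprotein particles. Its probe set, 1417043_at, had 141 to 223 in wild type (median 160), 126 to 195 in vehicle Tg2576 (median 156) and 93.5 to 164 in treated Tg2576 (median 118). Of the 11 treated animals, 8 lay below the lowest wild-type animal and 6 below the lowest vehicle animal, while replicates 7, 3 and 8 stood apart at 160 to 164, above both control medians. Treated minus vehicle was -0.27 (SE 0.09, 95% confidence interval -0.45 to -0.09), or 0.83-fold, with an unadjusted p of 0.00381 and a limma adjusted p of 0.227. Treated minus wild type was -0.37 (SE 0.09, 95% confidence interval -0.55 to -0.20), or 0.772-fold, with a limma adjusted p of 0.0594. Without treated replicate 3, 7 or 8, the animals that ran against the difference, that p was 0.0362, 0.0331 or 0.0355, past the threshold. These were the only 3 of 33 fits leaving out 1 array in which it passed, and the highest limma adjusted p was 0.131. Vehicle Tg2576 and wild type differed by -0.10 (SE 0.09, limma adjusted p = 0.755). Treated replicates 3 and 7, high for Lcat, were also the lowest for Apod and Apoc1, but over 33 animals with group means removed Lcat and Apod correlated at r = -0.34 (rho = -0.39) and Lcat and Apoc1 at r = -0.38 (rho = -0.42), and neither pair passed (permutation, adjusted p = 0.223 for r in each). Within wild type, vehicle and treated mice r was 0.19, -0.46 and -0.64 for Lcat with Apod. For Lcat with Apoc1 it was 0.10, -0.52 and -0.74 in the same order, and whether these values differ between groups was not tested.

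Pltp encodes phospholipid transfer protein, which moves phospholipid between particles, and its gene is a known LXR target. Its brighter probe set, 1456424_s_at, had 243 to 569 in wild type (median 320), 215 to 430 in vehicle Tg2576 (median 278) and 219 to 408 in treated Tg2576 (median 317). The groups overlapped through most of their range, and wild-type replicate 10, at 569, stood above all others. The drug difference was 0.11 (SE 0.11, 95% confidence interval -0.11 to 0.34, limma adjusted p = 0.767) and that of the dimmer probe set 1417963_at was -0.03 (SE 0.13). Vehicle minus wild type was -0.21 (SE 0.11, limma adjusted p = 0.553) and -0.06 (SE 0.13) for the same probe sets. They correlated with each other at r = 0.83.

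Pltp was the only member whose correlation with choroid plexus markers passed by r. The r was 0.65 (permutation, adjusted p = 0.00578), with 0.67, 0.71 and 0.57 within the 3 groups, but rho was 0.42 (adjusted p = 0.147) and r was 0.41 without the 2 farthest animals. The animals with the highest choroid plexus score, wild-type replicate 10 and vehicle replicate 11, were also the highest for Pltp in their groups, and the relation rests in part on them. Of the 10 choroid plexus markers 9 were higher in treated than in vehicle mice and none passed. The marker of smallest p was Ttr, transthyretin, at 1.38 (SE 0.76, limma adjusted p = 0.534).

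**Figure D3:**
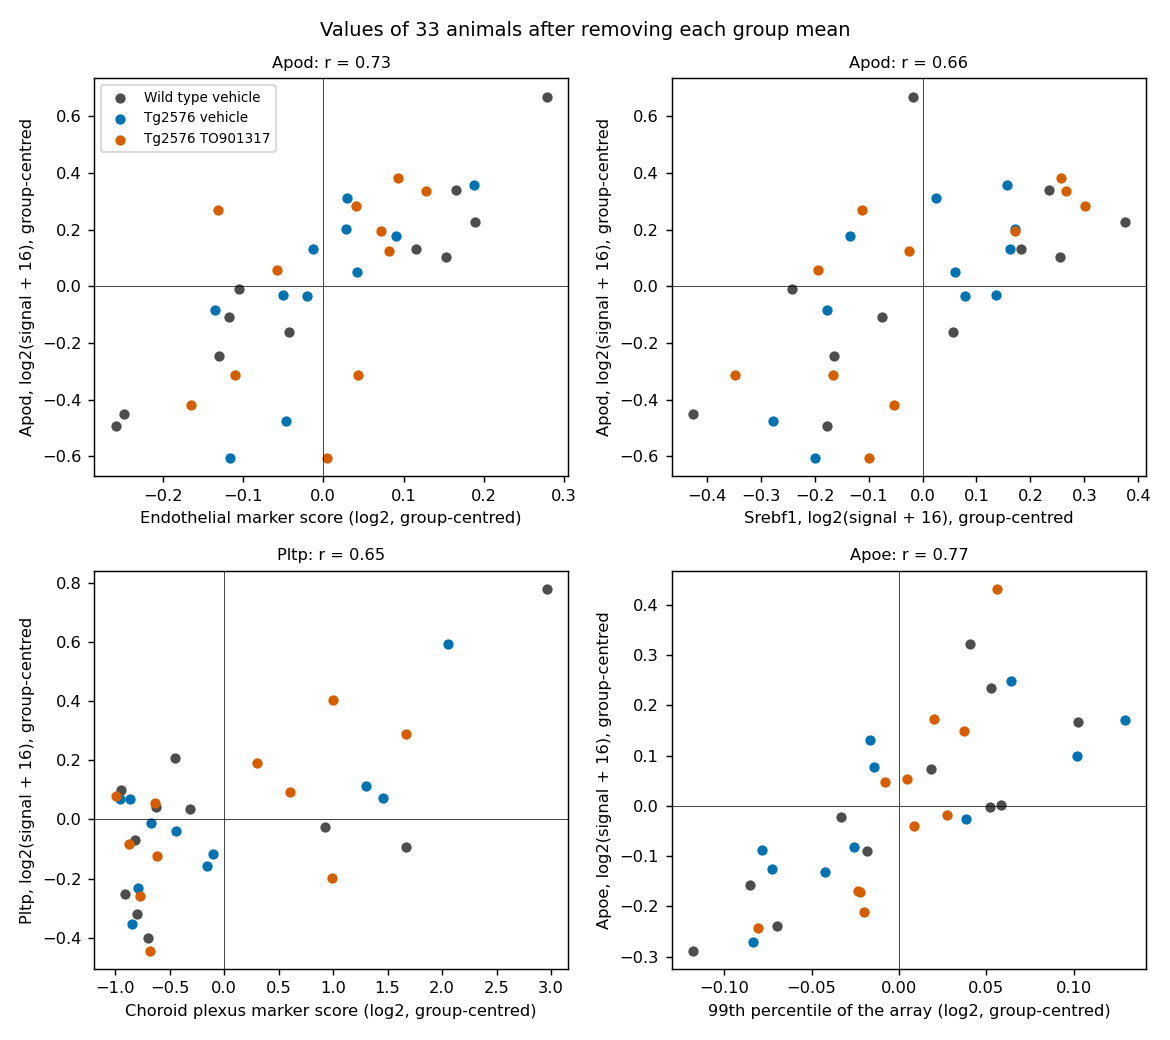
Values of 33 animals after removal of each group's mean, with colours for the 3 groups and log2 units on all axes: Apod against the endothelial marker score and against Srebf1, Pltp against the choroid plexus score, and Apoe against the 99th percentile of the array. The Apod and Apoe panels rise through all 3 groups (r of 0.73, 0.66 and 0.77). The Pltp panel (r = 0.65, or 0.41 without the 2 farthest animals) rests in part on animals with scores far above the rest.

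Lpl encodes lipoprotein lipase, which hydrolyses triglycerides and in hippocampus is made largely by neurons. Its bright probe set, 1415904_at, had 387 to 1266 in wild type (median 891), 418 to 1451 in vehicle Tg2576 (median 926) and 535 to 1401 in treated Tg2576 (median 991). The spread within each group exceeded any difference between groups. The drug difference was 0.17 (SE 0.21, 95% confidence interval -0.26 to 0.60, limma adjusted p = 0.831), and that of 1431056_a_at was 0.15 (SE 0.17, limma adjusted p = 0.81). Vehicle minus wild type was 0.08 (SE 0.21) and 0.04 (SE 0.17). The probe sets correlated with each other at r = 0.81, so the variation between animals was largely common to both. Within groups Lpl ran against Apod by rank (rho = -0.53, permutation, adjusted p = 0.0247) but not past the threshold by r (r = -0.45, permutation, adjusted p = 0.102). Under quantile normalization rho was -0.47 and missed the threshold (permutation, adjusted p = 0.14).

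Members varied together from animal to animal in few pairs. Of 21 pairs, with group means removed, Apoe and Clu correlated at r = 0.83 (rho = 0.81, n = 33, permutation, adjusted p = 0.00021), with 0.92, 0.70 and 0.84 within the 3 groups and 0.78 without the 2 farthest animals. Both genes followed the array's 99th percentile, and under quantile normalization the r was 0.31 (permutation, adjusted p = 0.277). No other pair passed by r, and by rank Apoc1 with Apod passed as well (rho = 0.49, permutation, adjusted p = 0.0404) beside Apod with Lpl. Under quantile normalization rho for Apoc1 with Apod was 0.36 (permutation, adjusted p = 0.236), so both rank calls were lost there.

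**Figure D4:**
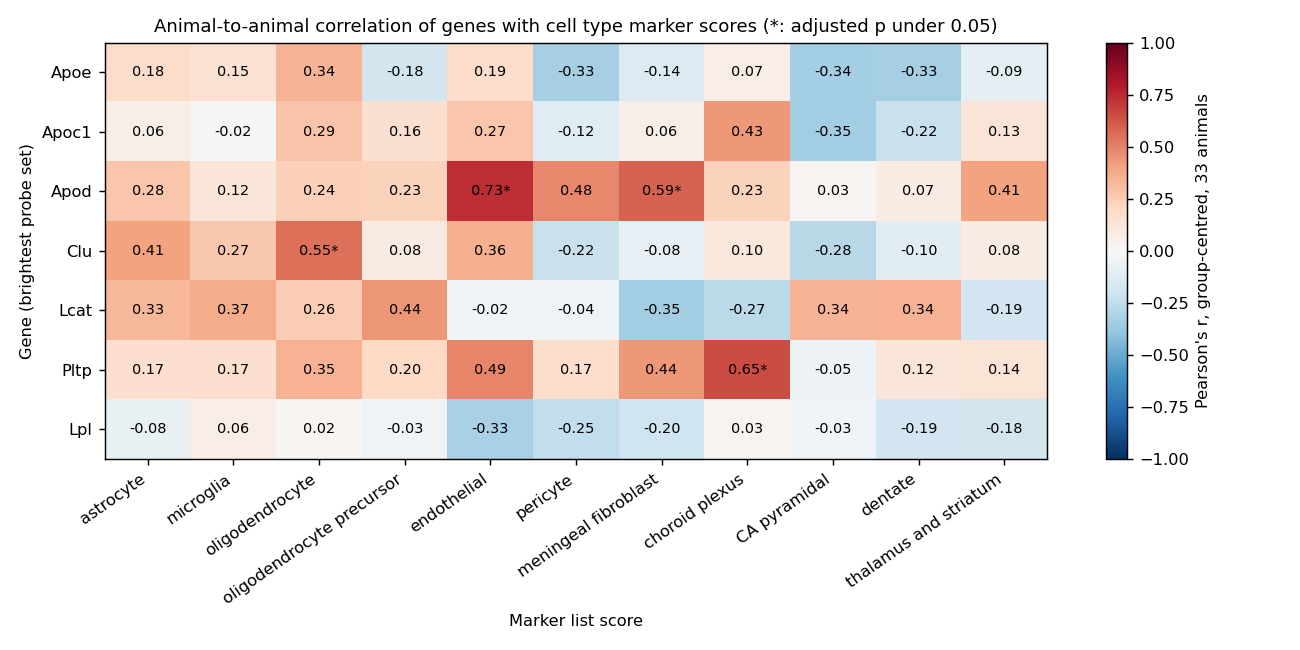
Pearson's r over 33 animals, group means removed, between the brightest probe set of each gene and 11 cell type marker scores, on a colour scale from -1 to 1, with a star where the adjusted p over 77 pairs was under 0.05. The 4 stars are Apod with endothelial (0.73) and meningeal fibroblast markers (0.59), Clu with oligodendrocyte markers (0.55) and Pltp with choroid plexus markers (0.65).

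The genes most like each member over the 33 animals, by r after removal of group means, differed between members and are given as a description. For Apod they were Ptgds, the prostaglandin D synthase (0.80), Gjb6, an astrocyte connexin (0.79), and Neat1, a nuclear non-coding RNA (0.76). For Apoe they were Cox6a1 (0.92), Fth1 (0.90) and Cox8a (0.90), and for Clu they were Rps10, Mt1 and Mbp (0.88 each). These include respiratory chain, ferritin, ribosomal and myelin genes whose signals are likewise among the brightest on the array. Apoc1 had Rprd2 (0.65), Sgk3 (0.64) and Tspo (0.64). Lcat had Arap3 (0.71), Rptor (0.67) and Brwd1 (0.64). Pltp had Fxyd1 (0.81), Clic1 (0.80) and Tcn2 (0.79), and Lpl had Hapln4 (0.85), Fam32a (0.84) and Ints10 (0.76). The points share arrays and their scaling. Where these genes lie in the genome relative to each member was not examined. Whether strain differences between animals on the mixed background moved them together was not tested.

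The transporters that load lipid onto apolipoproteins included genes that passed. Of 9 transporter genes tested, 2 rose between vehicle and treated Tg2576 and none fell: Abca1, from 311 ± 24.0 to 488 ± 89.2, and Abcg1, from 266 ± 26.7 to 361 ± 42.8 (SD, n = 11), the latter by 0.42 on the log2 scale (SE 0.06, limma adjusted p = 0.00098). The median of the 9 was 0.03. Abca1 was also higher in treated mice than in wild type, by 0.55 (SE 0.08, limma adjusted p = 0.000341). Of the 9, 1 passed in that comparison, and Abcg1, at 0.23 (SE 0.06, limma adjusted p = 0.154), did not. Scd1, a fatty acid desaturase on the list of LXR targets, rose by 0.66 over vehicle (SE 0.10, limma adjusted p = 0.00205). Mylip, which triggers degradation of LDL family receptors, Lpcat3, Smpdl3a, Nr1h3 and Fasn did not pass.

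None of the other lipoprotein genes passed in any comparison. Of 16 other apolipoproteins on the array 5 were bright enough to test, and the smallest p under the drug was that of Apoo, a mitochondrial apolipoprotein, at -0.14 (SE 0.05, limma adjusted p = 0.287). Of 8 lipases and their partners tested, Angptl4, an inhibitor of lipoprotein lipase, was at 0.31 under the drug (SE 0.12, limma adjusted p = 0.325). Pla2g7, a lipoprotein-associated phospholipase, was at -0.29 in treated mice against wild type (SE 0.07, limma adjusted p = 0.0724) and at -0.21 in vehicle mice against wild type (SE 0.07, limma adjusted p = 0.236). Of 9 receptor genes tested, Lsr, the lipolysis-stimulated lipoprotein receptor, was at 0.47 under the drug (SE 0.15, limma adjusted p = 0.227).

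Cell type markers that passed were few. Among 13 astrocyte markers, Slc4a4, a bicarbonate transporter, was lower in vehicle Tg2576 than in wild type by a difference of -0.27 (SE 0.05, limma adjusted p = 0.00279), and Ppp1r3c, a glycogen regulator, by -0.26 (SE 0.06, limma adjusted p = 0.0291). Slc4a4 was lower in treated mice than in wild type as well, at -0.29 (SE 0.05, limma adjusted p = 0.000934). Among 13 microglial markers Lyz2, lysozyme, was higher in vehicle Tg2576, at 0.62 (SE 0.13, limma adjusted p = 0.0322), and among 10 dentate markers Tdo2, a tryptophan-degrading enzyme, was lower, at -0.77 (SE 0.13, limma adjusted p = 0.00202). No marker of oligodendrocytes, their precursors, pericytes, meningeal fibroblasts, choroid plexus, CA pyramidal neurons or thalamus and striatum passed. Their members of smallest p were Ermn at -0.35, Slc22a6 at 0.48, Man1a at 0.24 and Slc17a6 at 0.47 in vehicle Tg2576 against wild type, and Gpr17 at -0.39 and Tagln at 0.65 in treated mice against wild type. The summed astrocyte signal, of interest for Apoe, ran from 11609 to 15150 in wild type, from 11114 to 13247 in vehicle and from 12232 to 15125 in treated mice, and Apoe correlated with the astrocyte score at r = 0.18, which did not pass.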

How the data were processed

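The 33 hippocampal arrays fall into 3 groups of 11 by their labels. The authors deposited linear array intensities that MAS5 had produced, per the submitters' processing notes; version and settings of MAS5: not given in the sources used here. Of 45101 probe sets, 64 controls were left out, and gene names are those of the array annotation, some of them possibly outdated.

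Intensities, as the authors deposited them, were turned into log2(signal + 16). Differences, and folds, which are ratios of signal + 16, therefore understate changes of dim genes. The lowest 40 percent of probe sets by mean signal (below 13.9) were left out. The remaining 27022 probe sets were fitted with limma 3.58.1 in R 4.3.3 on all 33 arrays (1 mean per group, eBayes with trend and robust), and Benjamini-Hochberg adjustment ran over all of them with a threshold of 0.05. The procedure was tested on simulated data. Correlations used each gene's brightest probe set with group means removed, permutations within groups (100000 resamples, two-sided) and Benjamini-Hochberg adjustment within each family, in Python 3.11.15 with scipy 1.17.1. A marker score is the mean of a list's centred log2 values.

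No pair of arrays was identical. Named genes are all members, the genes of each list that passed or otherwise that of smallest p, and the 3 genes most like each member. The members and lists were chosen with earlier results of these data known. Alternatives covered the pseudocount, the filter, scaling, the probe set unit, arrays, variance model, replicate number and covariates.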

Additional observations from a re-analysis of the deposited data

How the results depend on the processing

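Apod kept its call between treated and vehicle Tg2576 in 17 of 18 alternatives and in all 33 fits that left out 1 array (0.72 to 0.84, limma adjusted p 0.00298 to 0.0265); the exception was the endothelial covariate (0.50), which, like the 99th percentile covariate, was chosen after the data were seen. Left out in turn, arrays gave 1 to 2 called probe sets for this comparison, 1 to 3 for treated minus wild type and 0 for vehicle minus wild type. Quantile normalization gave 2 for treated minus vehicle, by adding Apoe, and the endothelial covariate gave 0. Treated minus wild type held 1 call in place of 2, by losing Apoc1, with pseudocount 1, no filter, array medians subtracted, only the compared groups, no trend, astrocyte and oligodendrocyte covariates and both endothelial covariates (limma adjusted p 0.0502 to 0.0944), while its difference was 0.998 with pseudocount 1 and 0.652 to 0.716 with the others, against 0.707 as reported. Apoc1 lost that call without wild-type replicates 1, 2 or 4 to 9, vehicle replicates 3, 5, 7 or 9, or treated replicates 1, 2, 4 to 6, 9 or 10, and passed against vehicle without wild-type replicate 2 (0.0422) or treated replicate 7 (0.0368). Lcat passed against wild type with the 60 percent filter (0.043), 1 probe set per gene (0.0415), array weights (0.0475) and the 99th percentile covariate (0.0462). These were 4 of 18 alternatives, over which its limma adjusted p ran up to 0.321. The correlation of Apoe with Clu fell from 1 called pair to 0 under quantile normalization. Whether the replicate numbers pair the animals was not settled by the arrays, and the main fit did not use them. Same-numbered arrays correlated above 0.1 in 7 of 11 pairs of vehicle with treated Tg2576. The count was 4 for wild type with treated and 2 for wild type with vehicle. In the same order the median r was 0.10, 0.07 and 0.06, and arrays correlated best with their own number in 2, 2 and 1. With the replicate block, called members were 0, 1 and 1 for vehicle minus wild type, treated minus vehicle and treated minus wild type, the last by losing Apoc1 (limma adjusted p = 0.0939).

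Signs turned only among differences that never passed. The carry-over covariates turned Apod in vehicle minus wild type (-0.048). Astrocyte and oligodendrocyte covariates turned the 4 Clu probe sets (0.0117, 0.0088, 0.0124 and 0.0126) and Lcat (0.0079) there, and 2 Clu probe sets in treated minus wild type (0.017 and 0.034). The endothelial covariate turned Pltp (0.00724) and Lpl (-0.025 and -0.0029) in vehicle minus wild type, Clu (-0.02995 and -0.0108) and Pltp (-0.039) under the drug, and Clu (-0.0201 and -0.0082) in treated minus wild type; without Slco1a4 the values were -0.013 for Lpl, -0.021 for Clu, -0.013 for Pltp, and -0.013 and -0.00295 for Clu. Quantile normalization (-0.0034) and the 99th percentile covariate (-0.0027) turned Clu under the drug, that covariate also Pltp (0.0062) and Clu in treated minus wild type (-0.0082), and median subtraction the latter (-0.0044). Pltp turned without vehicle replicates 3 and 4 (0.011). With arrays left out in turn, Apoc1 (-0.0195 to 0.15), Lpl (-0.022 to 0.18 and -0.049 to 0.11) and Pltp (-0.12 to 0.0093) crossed 0 in vehicle minus wild type, Pltp (-0.0695 to 0.032) under the drug, and Clu (-0.051 to 0.0032 and -0.019 to 0.038) in treated minus wild type. Causes of these changes were not tested. Over all probe sets, calls ran from 20 to 79 (43 as reported), from 3 to 129 (38) and from 25 to 86 (39) in the same order of comparisons; the 3 is with the endothelial covariate, and there were 9 for the drug without vehicle replicates 3 and 4. Signal over background limits the dim probe sets of Apoc1 and the second of Apod.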
